A study of Mus musculus with 4 samples.

Results

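The keratins of simple and mucosal epithelia were followed in newborn mouse epidermis with and without *Skiv2l* in keratinocytes. The 8 genes were chosen by name: *Krt7*, *Krt8*, *Krt18* and *Krt19* of simple epithelia, *Krt4* and *Krt13* of mucosal stratified epithelia, *Krt12* of the cornea, and *Krt23*. They are 8 of 54 *Krt* genes and 8 of 54752 genes in the tables, and all 8 were among the 13609 protein-coding genes that could be tested. Total RNA came from the epidermis of 4 C57BL/6 pups at postnatal day 0, 2 of the genotype Skiv2l ctl (controls) and 2 Skiv2l fl/fl K14-Cre (knockouts). In the knockouts both *Skiv2l* alleles carry loxP sites and Cre is made from the keratin 14 promoter, which is active in keratinocytes. The deletion is lasting, so it passes to all cells that descend from a cell in which it took place. Which cells of these pups kept the gene was not measured in these libraries. The Skiv2l ctl label covers pups with Skiv2l fl/fl, Skiv2l fl/+ or Skiv2l fl/+ K14-Cre, and which of these each control pup had is not given. *Skiv2l* encodes the helicase of the SKI complex, which feeds RNA to the cytoplasmic exosome.

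Keratins are the intermediate filament proteins of epithelial cells. An acidic type I keratin pairs with a basic type II keratin, so filaments need a member of each type, and each kind of epithelium is known by its pairs. Basal epidermis uses K5 with K14 and suprabasal epidermis K1 with K10, single-layered epithelia use K8 with K18 or K19 and often K7, and the esophagus and mouth use K4 with K13. In skin, K8, K18 and K20 mark Merkel cells, the touch receptors of the epidermis, and simple keratins also occur in periderm, the transient outer layer of fetal skin. *Krt4*, *Krt7* and *Krt8* encode type II keratins, and *Krt12*, *Krt13*, *Krt18*, *Krt19* and *Krt23* type I keratins.

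Values are FPKM, fragments scaled by transcript length and by library total, so levels can be compared between genes. Fold changes are differences of mean log2(FPKM + 1), knockout over control, so they understate changes of low genes, and they are given with the SE of limma. A gene was called changed at a Benjamini-Hochberg adjusted p under 0.05 over the 13609 genes. Coverage divided by FPKM put the aligned depth at 5.843 to 6.274 gigabases per library. *Skiv2l* stood at 19.3 and 19.1 FPKM in the controls and at 10.8 and 8.55 in the knockouts, a log2 fold change of -0.92 (limma adjusted p = 0.00368). Keratinocyte keratins were abundant in every library, *Krt10* at 6378 to 10220 FPKM. *Krt14* stood at 1736 and 1812 FPKM in the controls and at 7381 and 7312 FPKM in the knockouts (log2 fold change 2.05, limma adjusted p = 0.000171). Of 6 keratinocyte markers, *Krt14* was called higher, *Krt1* (-0.51) and *Lor* (-0.92) lower and 3 not. These are 16.7% and 33.3%, beside 8.99% called higher and 25.4% lower over all tested genes. Across all tested genes the median log2 fold change was -0.20.

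*Krt12* and *Krt23*, the members whose RNA fell, lie close together in the type I keratin cluster on chromosome 11 (GRCm38), both on the minus strand, with *Krt20* between them. *Krt12* (ENSMUSG00000020912.4) spans chr11:99415666-99422259 and *Krt23* (ENSMUSG00000006777.7) chr11:99477974-99493137. Their RefSeq promoters, 250 bases before to 50 after the start site on GRCm38.p6, are shown because these are the members called lower. They cover chr11:99422210-99422509 for *Krt12* and chr11:99493071-99493370 for *Krt23*, read 5′ to 3′ on the minus strand, with matches to the TATA box (TATAAA), the CACCC box of KLF and Sp1 factors (CCACCC) and an E-box (CACGTG) in capitals.
Krt12: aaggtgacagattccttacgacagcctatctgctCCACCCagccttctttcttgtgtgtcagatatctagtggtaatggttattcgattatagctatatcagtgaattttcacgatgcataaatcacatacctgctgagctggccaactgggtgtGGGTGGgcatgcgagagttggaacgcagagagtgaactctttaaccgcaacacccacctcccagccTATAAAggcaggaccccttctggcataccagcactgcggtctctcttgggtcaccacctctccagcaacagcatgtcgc
Krt23: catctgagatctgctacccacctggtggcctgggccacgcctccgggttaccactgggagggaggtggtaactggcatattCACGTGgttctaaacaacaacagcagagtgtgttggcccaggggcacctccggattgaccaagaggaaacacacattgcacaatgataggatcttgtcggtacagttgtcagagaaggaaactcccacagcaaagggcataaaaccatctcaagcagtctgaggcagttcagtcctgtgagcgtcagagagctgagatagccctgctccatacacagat
Both strands were searched. The *Krt12* window held TATAAA starting at position -29 from the start site and CCACCC at -216 and, on the other strand, at -95, and the *Krt23* window held CACGTG at -169 and no match to the other letters. Of 32851 RefSeq promoters of this length, 13.6% held TATAAA, 31.5% CCACCC and 7.15% CACGTG. RefSeq promoters were matched for 6 of the 8 genes, all but *Krt4* and *Krt19*. A match is a description of these letters and not evidence of binding.

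*Krt12*, the type I keratin of corneal epithelium, showed the largest fall among the 8 genes. It stood at 9.01 and 6.18 FPKM in the control libraries and at 0.256 and 0.165 FPKM in the knockouts. Both knockout libraries were therefore far below both controls, and the mean FPKM was 36.1-fold lower (7.60 ± 2.005 against 0.211 ± 0.0646, SD, n = 2 per genotype). The log2 fold change was -2.81 ± 0.18 (limma adjusted p = 0.000369). Mean coverage of the gene was 54.8 and 38.8 reads per base in the control pups against 1.497 and 0.978 in the knockouts, so the lower values rest on few reads. Fewer cells that express a gene and less RNA per cell cannot be told apart in bulk epidermis. An antisense gene, *A830036E02Rik*, overlaps *Krt12* on the opposite strand and holds 35.6% of its 75-base stretches. It stood at 0.704 and 0.782 FPKM in the controls and at 0.174 and 0.112 FPKM in the knockouts. The use of strand in the counting is not stated, so reads of the pair cannot be told apart.

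*Krt23*, a type I keratin described in several glandular epithelia and carcinomas, was the most abundant member. Its FPKM was 140.2 and 115 in the control pups against 57.2 and 50.9 in the knockouts. The genotypes did not overlap, and the mean was 2.36-fold lower (128 ± 17.5 against 54.1 ± 4.41, SD, n = 2). The log2 fold change was -1.22 ± 0.12 (limma adjusted p = 0.00126). No 75-base stretch of *Krt23* occurs in another gene.

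These were the 2 of 8 members called lower, and 0 of 8 were called higher. Over all tested genes 25.4% were called lower and 8.99% higher, so the share of members called lower was near that of all genes on this scale. *Krt12* and *Krt4* passed the filter only through the controls. That background depends on the scaling, with 1223 genes called higher and 3455 lower on the deposited scale against 1894 and 1623 after median scaling. Called lower were then 2 of 8 members and 11.9% of all genes. It was 2 of 8 beside 14.1% with quantile normalization, 2 of 8 beside 30.5% with TPM, and 1 of 8 beside 4.23% with no filter. The median log2 fold change of the 8 was -0.39, beside -0.20 over all tested genes. Both knockout libraries lay below both controls for the same 2 members and above both controls for *Krt7* and *Krt13*, beside 55.3% and 18.2% of all tested genes. The median of the 8 ranged from -0.89 to 0.04 when each pup was left out in turn, and calls of single members that moved with a pup or a scaling are given with each gene. An exact two-sided permutation test of a single gene with 2 pups per genotype cannot go below p = 0.33, so each call rests on the spread that limma pools over genes.

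**Figure D1:**
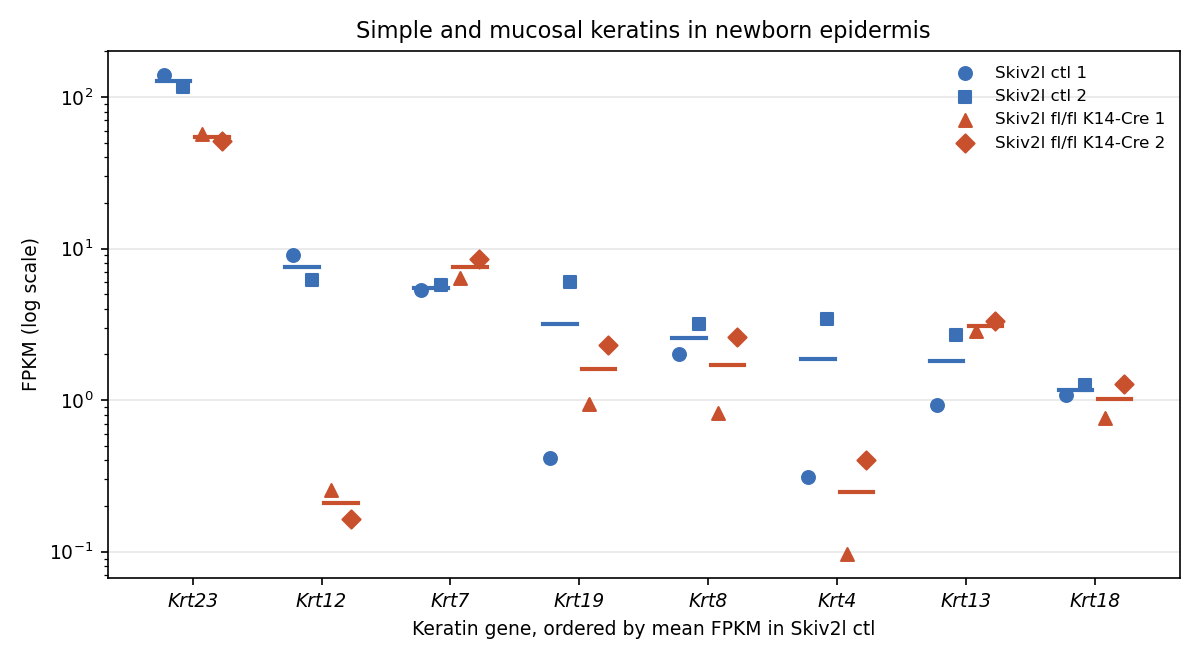
FPKM (log axis) of each of the 8 keratins in the 4 libraries, with blue for Skiv2l ctl, red for Skiv2l fl/fl K14-Cre, a point per pup and a bar at the mean of each genotype. The red points of *Krt23* and *Krt12* lie below the blue points, those of *Krt7* and *Krt13* above, and the blue points of *Krt19* and *Krt4* lie more than 10-fold apart.

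*Krt7*, a type II keratin of ducts and other simple epithelia, was the member nearest to a call in the other direction. It stood at 5.30 and 5.75 FPKM in the controls and at 6.42 and 8.58 FPKM in the knockouts. The genotypes did not overlap, but the log2 fold change of 0.37 ± 0.15 did not pass (limma adjusted p = 0.0988). It passed when each library was scaled to its median (0.55, limma adjusted p = 0.0449) or quantile normalized (0.56, limma adjusted p = 0.0386), and without knockout pup 1 (0.55, limma adjusted p = 0.0275). Median scaling moved the median change of all tested genes from -0.20 to -0.03.

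*Krt8* and *Krt18*, the partner keratins of simple epithelium and Merkel cells, lie side by side at the end of the type II cluster on chromosome 15. *Krt8* (chr15:101996698-102004482) stood at 2.01 and 3.17 FPKM in the controls and at 0.819 and 2.59 FPKM in the knockouts. *Krt18* (chr15:102028180-102032027) stood at 1.08 and 1.26 FPKM in the controls and at 0.759 and 1.28 FPKM in the knockouts. For both genes knockout pup 1 was the lowest library and pup 2 lay within or just above the control range. The log2 fold changes were -0.47 ± 0.33 for *Krt8* and -0.11 ± 0.17 for *Krt18* (limma adjusted p = 0.302 and 0.635). Without knockout pup 2 *Krt8* passed (-0.96, limma adjusted p = 0.0443), and without pup 1 its change was 0.02. The *Krt8* to *Krt18* FPKM ratio was 1.86 and 2.52 in the control pups against 1.08 and 2.02 in the knockouts, so the genotypes overlapped. Of the 75-base stretches of *Krt8*, 23.5% occur in other genes, mostly in the pseudogene *Krt8-ps*, which was listed at 0 to 0.0745 FPKM.

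*Krt19*, the type I keratin without a tail domain, varied most of the 8 between the control pups. It stood at 0.417 and 5.97 FPKM in the controls and at 0.937 and 2.29 FPKM in the knockouts. Both knockout values lay between the control values. The log2 fold change was -0.32 ± 0.70 (limma adjusted p = 0.744), and it was 0.83 without control pup 2 and -1.47 without control pup 1. The *Krt7* to *Krt19* ratio was 12.7 and 0.963 in the control pups against 6.85 and 3.74 in the knockouts, and the *Krt8* to *Krt19* ratio 4.81 and 0.53 against 0.874 and 1.13. In both ratios the knockout values fell between the control values.

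*Krt4* and *Krt13*, the partner keratins of esophagus and mouth, had changes of opposite sign, and neither passed. *Krt4* stood at 0.312 and 3.41 FPKM in the controls and at 0.0968 and 0.4 FPKM in the knockouts. Its log2 fold change of -0.96 ± 0.53 (limma adjusted p = 0.198) rested on control pup 2. Without that pup it was -0.08 (limma adjusted p = 0.789), and without control pup 1 it was -1.83 and passed (limma adjusted p = 0.0234). *Krt13* stood at 0.925 and 2.70 FPKM in the controls and at 2.87 and 3.34 FPKM in the knockouts. Both knockout values were above both controls, with a log2 fold change of 0.62 ± 0.30 (limma adjusted p = 0.150) that reached 1.09 without control pup 2 (limma adjusted p = 0.0392). The *Krt4* to *Krt13* ratio was 0.338 and 1.26 in the control pups against 0.0337 and 0.12 in the knockouts, so that the genotypes did not overlap. Mean coverage of *Krt4* in the knockouts was 0.565 and 2.37 reads per base, so their ratios rest on few reads.

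Pups of a genotype differed in several of these keratins. Control pup 2 minus pup 1 on log2(FPKM + 1) was 2.30 for *Krt19* and 1.75 for *Krt4*, the 10th and 14th highest of 13609 tested genes, and 0.94 for *Krt13*, the 42nd. Knockout pup 2 minus pup 1 was 0.98 for *Krt8*, the 54th highest, and 0.77 for *Krt19*, the 96th. Only 92 tested genes differed by more than 1 between the controls and 94 between the knockout pups. The 6 members other than *Krt12* and *Krt23* were higher in pup 2 than in pup 1 in both genotypes, beside 54.2% of tested genes in the controls and 42.8% in the knockout pups. The labels give the pup numbers no further meaning, so whether pup 2 of each genotype had anything else in common is not known. Among genes of other epithelia, *Upk1b*, a uroplakin, was listed at 0.833 FPKM in control pup 2 and at 0 to 0.0178 FPKM in the others. *Pax6*, the eye regulator that acts on *Krt12*, stood at 1.17 FPKM in control pup 2 and at 0.0304 to 0.157 FPKM in the others, whereas *Krt12* was lower in that pup than in control pup 1. *Slc17a7*, a glutamate transporter of neurons, stood at 2.19 FPKM in control pup 1 and at 0.0187 to 0.122 FPKM in the others. The Y-linked *Ddx3y* stood at 12.0 FPKM in control pup 2 and 11.6 FPKM in knockout pup 1 and at 0.0519 and 0 FPKM in the other pups, so the pups of each genotype differed in it. The part of these differences in the keratin values was not tested.

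**Figure D2:**
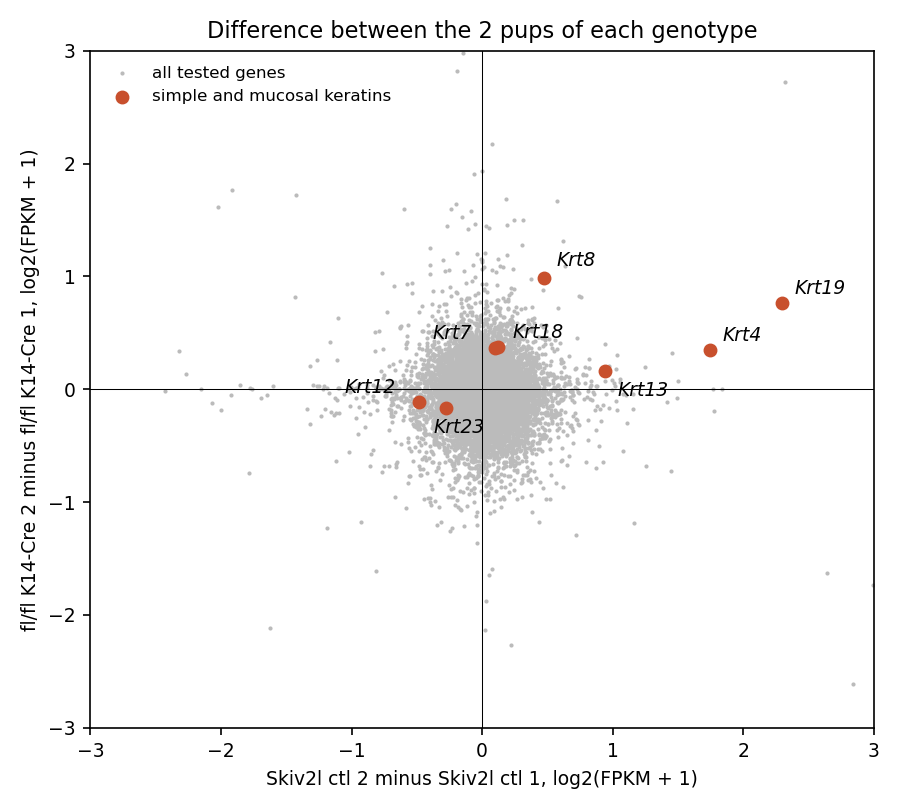
Difference between the 2 pups of each genotype on log2(FPKM + 1), Skiv2l ctl on the x axis and Skiv2l fl/fl K14-Cre on the y axis, with a gray point per tested gene and the 8 keratins in red. The axes stop at 3 in each direction and leave out 10 genes. *Krt19* and *Krt4* lie far to the right and *Krt8* lies high. *Krt12* (-0.48 on the x axis, -0.11 on the y axis) and *Krt23* (-0.28, -0.16) lie to the left of and below the origin.

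Ordered by level per length, the controls had *Krt23* highest (128 FPKM), then *Krt12* (7.60), *Krt7* (5.53), *Krt19* (3.20), *Krt8* (2.59), *Krt4* (1.86), *Krt13* (1.81) and *Krt18* (1.17). In the controls the range of *Krt23* was separate from that of *Krt12*, and *Krt12* from *Krt7*, whereas from *Krt7* downward each overlapped the next. In the knockouts the order was *Krt23* (54.1 FPKM), *Krt7* (7.501), *Krt13* (3.10), *Krt8* (1.71), *Krt19* (1.62), *Krt18* (1.02), *Krt4* (0.248) and *Krt12* (0.211). *Krt12* thus moved from the second place to the last, where its range overlapped that of *Krt4*. *Krt8* overlapped *Krt19* and *Krt19* overlapped *Krt18* there, and the other neighbors were separate.

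Summed over the 8 genes, FPKM was 159 and 144 in the control pups against 69.3 and 69.6 in the knockouts, 2.18-fold lower on the means. *Krt23* made up 73.2% to 88.0% of this sum in each library. Without *Krt12* and *Krt23* the remaining 6 genes summed to 10.0 and 22.3 FPKM in the control pups against 11.9 and 18.5 FPKM in the knockouts, with overlapping genotypes. The type II members alone summed to 7.62 and 12.3 against 7.33 and 11.6 FPKM, and the type I members to 152 and 132 against 62.0 and 58.0 FPKM. As a share of the FPKM of all *Krt* genes, the 8 made up 0.571% and 0.486% in the control pups against 0.157% and 0.143% in the knockouts. The sum of all *Krt* genes was itself higher in the latter, 44244 and 48582 against 27897 and 29598 FPKM.

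Among the other 46 *Krt* genes, 38 were tested, of which 13 were called higher (34.2%), 12 lower (31.6%) and 13 not called. Over all tested genes the shares were 8.99% and 25.4%. Of the 38, 2 passed the filter only through the knockouts, both of them called higher. Another 3 passed it only through the controls, 1 of them called lower, so these calls give no support. The median log2 fold change of the 38 was -0.11. The largest changes were those of the wound keratins *Krt6a* (6.13), *Krt6b* (5.79) and *Krt16* (3.99), which rose, and *Krt77* (-3.04), which fell. *Krt10* (-0.44) and *Krt5* (-0.21) did not pass. On log2(FPKM + 1) the change of *Krt12* was the second lowest of the 46 tested keratins, after that of the type II keratin *Krt77*. This scale understates changes of low genes, and the order differs on FPKM itself. *Krt77* went from 70.8 and 71.2 to 7.23 and 8.37 FPKM, a smaller fold than the 36.1-fold lower mean of *Krt12*. *Krt12* was nearest to *Krt77* in its centered log2(FPKM + 1) profile over the 4 libraries (Euclidean distance 0.463), with the same limit. *Krt15*, at 462 and 428 against 92.1 and 155 FPKM, was the next nearest to *Krt12* (1.13). *Krt23* was nearest to *Krt32* (0.256), a hair keratin at 2.47 and 2.48 against 0.577 and 0.601 FPKM, and then to the hair keratin *Krt87* (0.687).

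**Figure D3:**
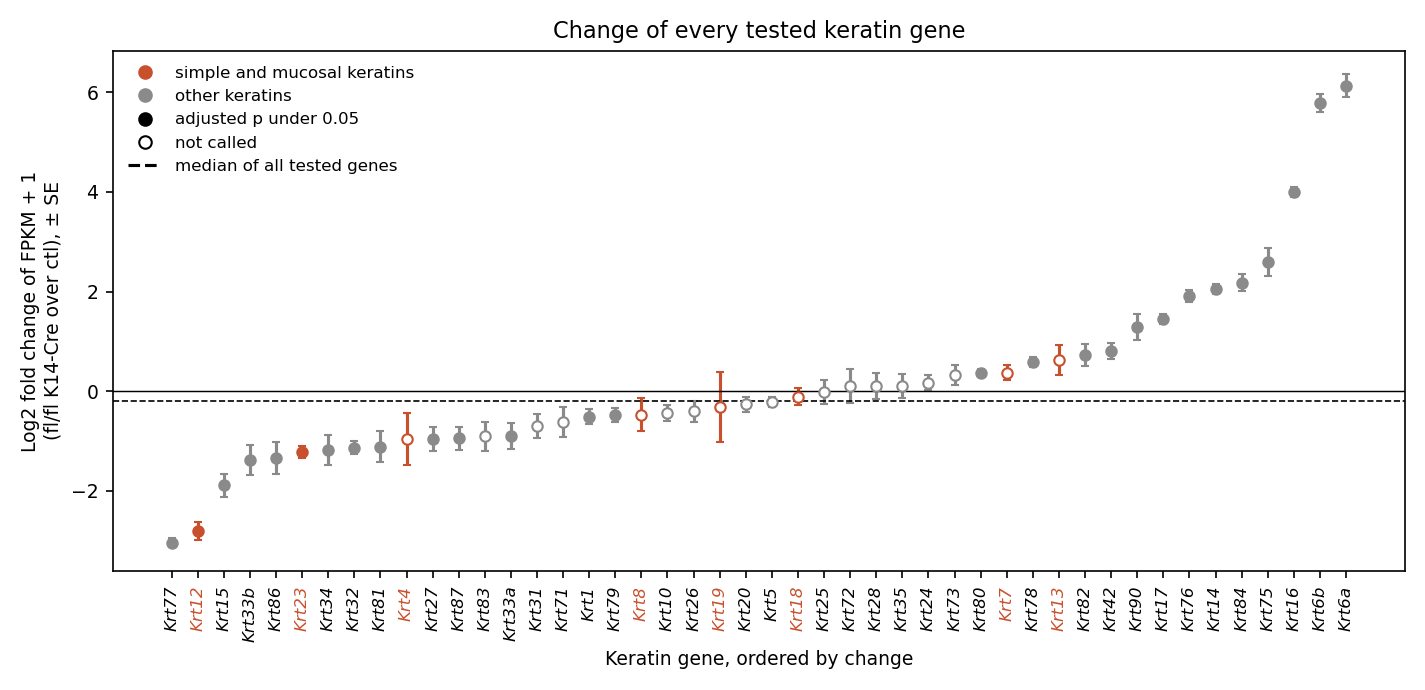
Log2 fold change of FPKM + 1 (± SE of limma, 2 pups per genotype) of the 46 tested keratin genes, ordered by change, with the 8 simple and mucosal keratins in red, filled points for adjusted p under 0.05 and the median of all tested genes as a dashed line. *Krt12* (-2.81) is next to the low end, *Krt23* (-1.22) is filled, and the other 6 red points are open.

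The nearest keratins of the other 6 members were as follows. *Krt4* was nearest to the hair keratins *Krt81* (0.583) and *Krt34* (0.639), which were also highest in control pup 2, at 4.57 and 3.59 FPKM, and *Krt19* was nearest to *Krt4* (0.805) and *Krt71* (1.08). *Krt8* was nearest to *Krt31* (0.505) and *Krt10* (0.511), and *Krt18* to *Krt20* (0.269) and *Krt5* (0.29). *Krt7* was nearest to *Krt24* (0.225) and *Krt78* (0.263), and *Krt13* to *Krt73* (0.496) and *Krt35* (0.56). These distances come from 4 libraries and are given as a description.

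Along chromosome 11 *Krt12*, *Krt20* and *Krt23* are the 8th, 9th and 10th of 27 *Krt* genes in order of position. *Krt20*, the Merkel and intestinal keratin between the called members, was low, at 0.403 and 0.584 FPKM in the control pups against 0.21 and 0.27 FPKM in the knockouts (log2 fold change -0.27, limma adjusted p = 0.215). *Krt10*, on the other side of *Krt12*, had a log2 fold change of -0.44 (limma adjusted p = 0.0760). *Krt13* and *Krt19* lie further along, on either side of *Krt15*, which fell by 1.89 on the log2 scale (limma adjusted p = 0.00258). *Krt13* (0.62) and *Krt19* (-0.32) themselves were not called. On chromosome 15, *Krt7* (chr15:101411043-101430313) lies near the opposite end of the cluster from *Krt8* and *Krt18*. *Krt4* (chr15:101918535-101924735) lies between *Krt76*, which rose by 1.91, and *Krt79*, which fell by 0.47 on the log2 scale (limma adjusted p = 0.000343 and 0.0437).

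**Figure D4:**
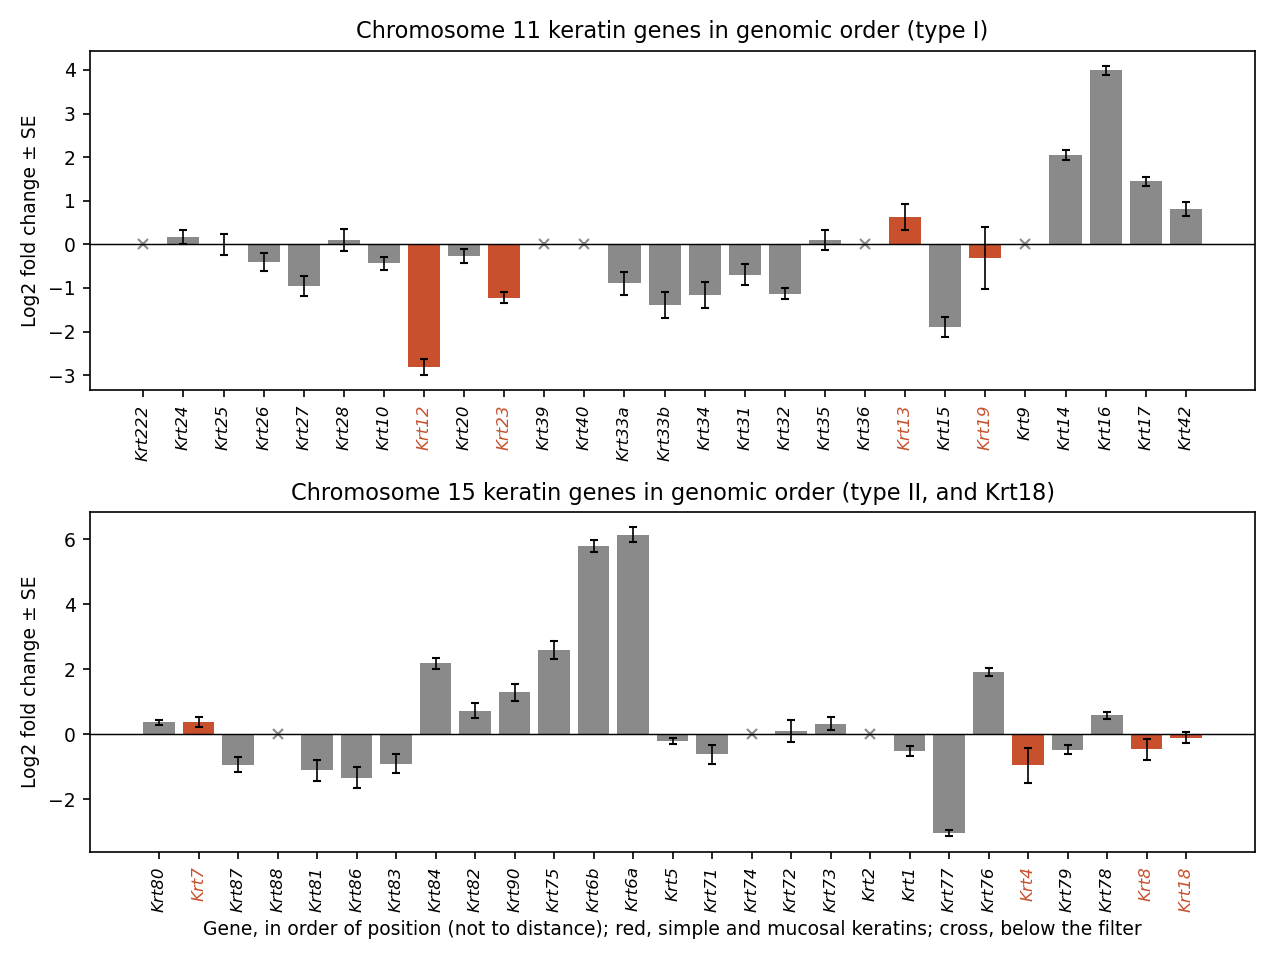
Log2 fold change (± SE of limma) of the keratin genes of chromosomes 11 and 15 in order of position, not to distance, with the 8 simple and mucosal keratins in red and a cross for genes below the filter. *Krt12* and *Krt23* flank *Krt20*, *Krt13* and *Krt19* flank *Krt15*, and *Krt8* and *Krt18* close the chromosome 15 cluster.

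Several other genes of stratified mucosa rose, whereas *Krt4* and *Krt13* were not called. The list of 19 includes proteases of the airway and esophagus and keratins of the mouth, and 17 were tested, of which 12 were called higher, 1 lower and 4 not. Of these 17, 6 passed the filter of 0.5 FPKM only through the knockouts, among them 4 of those called higher (*Sprr3*, *Tmprss11a*, *Tmprss11d* and *Psca*), so the count over tested genes gives no support. Of the 11 above 0.5 FPKM in a control, 8 were called higher, 1 lower and 2 not, beside 8.99% higher and 25.4% lower over all tested genes. Those shares were not limited to genes above 0.5 FPKM in a control. Among the 11, *Krt6a*, *Krt6b*, *Krt76*, *Krt78* and *Krt15* were also counted with the other keratins. With no filter 7 of the 19 were called higher and 0 lower, beside 2.17% and 4.23% of all genes. *Krt6a* and *Krt6b*, also keratins of wounded skin, led the list. *Pitx1*, a regulator of oral and hindlimb development, stood at 0.711 and 0.524 FPKM in the controls and at 9.32 and 6.24 FPKM in the knockouts (log2 fold change 2.42, limma adjusted p = 0.000673). *Tmprss11b*, a membrane serine protease, went from 0.18 and 0.584 to 4.84 and 4.96 FPKM (log2 fold change 2.11, limma adjusted p = 0.000754). The basal keratin *Krt15* was the gene called lower. *Crnn*, the esophageal cornulin gene, at 1.09 and 1.83 against 4.80 and 2.27 FPKM, and *Sox2*, at 0.458 and 0.381 against 0.456 and 0.541 FPKM, did not pass.

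Genes of simple epithelium were called in shares near those of all genes. Of 18, 15 were tested, of which 2 were called higher (13.3%), 5 lower (33.3%) and 8 not, beside 8.99% and 25.4% of all tested genes. Their median log2 fold change was -0.19, beside -0.20. The epithelial ETS factors *Ehf* and *Elf3* rose, *Ehf* from 7.59 and 7.92 to 39.2 and 45.2 FPKM (log2 fold change 2.30, limma adjusted p = 0.0001) and *Elf3* from 3.75 and 3.79 to 9.33 and 20.9 FPKM (1.66, limma adjusted p = 0.0126). The tight junction genes *Marveld2* and *Tjp3* fell by 1.03 and 1.02 on the log2 scale (limma adjusted p = 0.00374 and 0.00197). *Cdh1*, which encodes E-cadherin, and *Spint2*, a protease inhibitor, had log2 fold changes of -0.11 and -0.12 and did not pass.

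**Figure D5:**
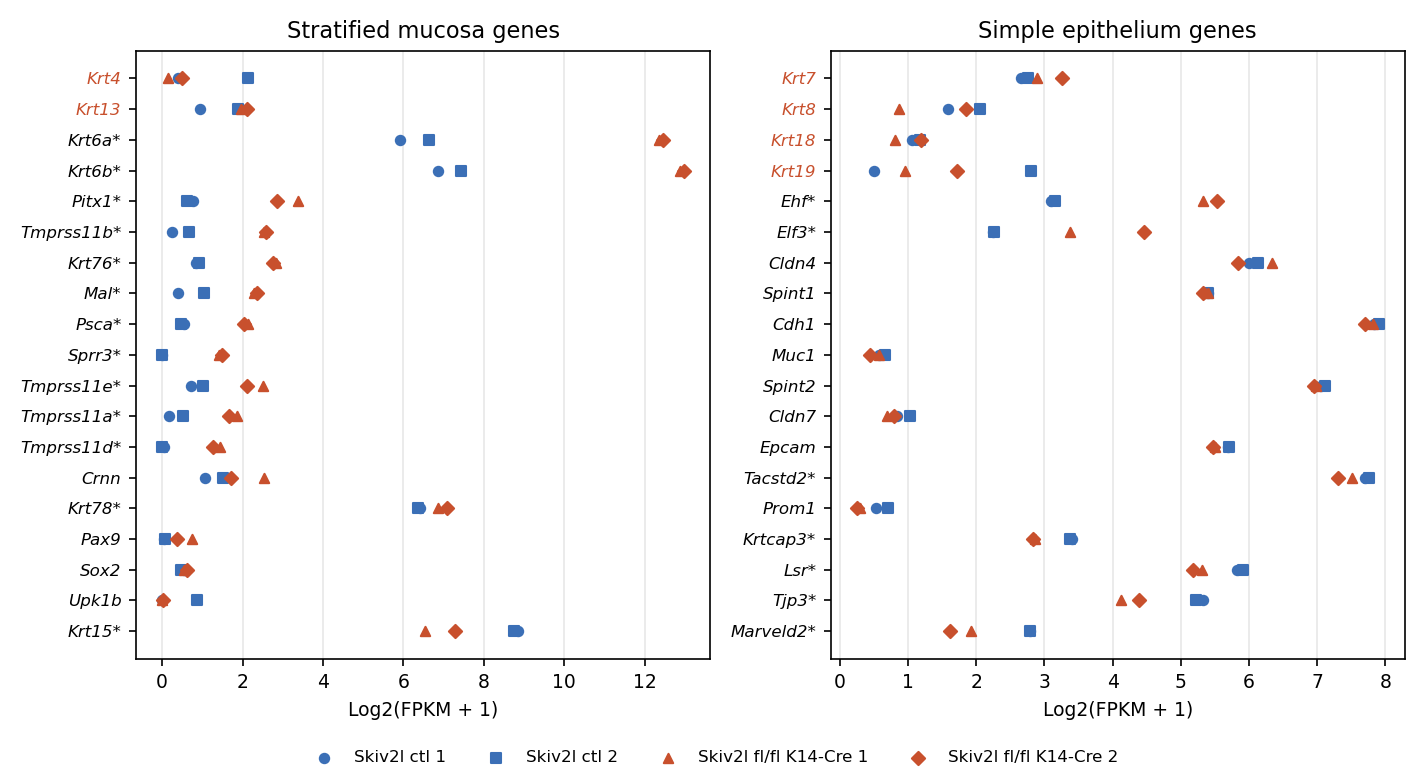
Log2(FPKM + 1) of the tested genes of stratified mucosa (left) and simple epithelium (right) in the 4 libraries, blue for Skiv2l ctl and red for Skiv2l fl/fl K14-Cre, with the keratins of each epithelium on top in red type and an asterisk for adjusted p under 0.05. The mucosa genes with an asterisk lie higher in red in 12 cases, 4 of them tested only through the knockouts, and *Krt4* and *Krt13* carry no asterisk.

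Proteins that bind or anchor keratin filaments were followed in a list of 20 genes, all tested. Of these, 8 were called higher (40%), 1 lower (5%) and 11 not, beside 8.99% and 25.4% of all tested genes. Their median log2 fold change was 0.21. The cytolinkers *Macf1* (1.30) and *Eppk1* (1.02), the keratin-binding 14-3-3 gene *Sfn* (0.85) and desmoplakin, *Dsp* (0.71), rose by these log2 fold changes. *Pkp1*, a desmosomal plaque gene (0.30), and the small heat shock protein gene *Hspb1* (0.16) did not pass. Of the 12 regulators of periderm and surface barrier, 3 were called higher (25%), 1 lower (8.33%) and 8 not, with a median of 0.09. *Krt17* (1.45), *Sfn* (0.85) and *Ripk4* (0.48) rose, *Tfap2a* fell by 0.41 on the log2 scale, and *Klf4* (0.12) and *Grhl1* (-0.10) did not pass.

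Markers of other cells that carry these keratins, or that an epidermal preparation could hold, moved as follows. Over all tested genes 25.4% were called lower and 8.99% higher, and 55.3% had both knockout libraries below both controls. Of 9 Merkel cell genes besides *Krt8* and *Krt18*, 1 was called lower and 8 were not, and their sum was 30.2 and 20.3 FPKM in the control pups against 13.7 and 15.3 FPKM in the knockouts. All but *Sox2* had both knockout libraries below both controls, but 6 of the 9 passed the filter only through the controls. The gene called lower was *Chga*, at 20.5 and 16.5 against 11.8 and 13.1 FPKM, whereas the defining regulator *Atoh1* was at 0.941 and 0.976 against 0.257 and 0.544 FPKM and did not pass. *Snap25*, which is also neuronal, accounted for 4.23 FPKM of the sum in control pup 1 and for 0.244 FPKM or less in the others. Of 8 hair follicle genes, 4 were called lower (50%) and 4 not. Their sum was 118 and 137 FPKM in the control pups against 62.3 and 65.6 FPKM in the knockouts. The fibroblast sum was 61.3 and 69.0 against 21.9 and 25.0 FPKM, with 2 of 5 tested genes called lower. Nearly all of it was *Dcn*, without which it was 4.38 and 6.31 against 5.01 and 3.60 FPKM, so that the genotypes overlapped. *Pdgfra*, at 0.299 and 0.25 against 0.789 and 0.668 FPKM, differed in the other direction and was not called. The leukocyte sum was 22.0 and 25.6 against 11.2 and 10.9 FPKM, also with 2 of 5 called lower. Besides *Krt12*, the corneal epithelium genes *Pax6* and *Aldh3a1* were at 1.20 FPKM or less in every library and were not called. None of 5 sebocyte genes was called, and 1 of 5 melanocyte genes was called higher. Endothelial genes summed to 0.463 to 0.686 FPKM, skeletal muscle genes to 0.315 to 0.827 FPKM and airway and gut genes to 0.470 to 1.99 FPKM, with *Nkx2-1* and *Foxa2* listed at 0 in all libraries. The airway gene *Scgb1a1* was called lower, but the 2 tested airway and gut genes passed the filter only through the controls. The part of any of these cells in the keratin values was not tested.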

How the data were processed

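Libraries were grouped by the genotype label, and whether same-numbered pups were paired is not given. Per the labels, reads were placed on GRCm38, and the authors deposited 1 table per library. FPKM, as deposited, is scaled by transcript length and library total. TPM, as deposited, has a common total. The coverage signal, as deposited, is reads per base of the gene. Aligner, counter and use of strand are not given in the sources used here. FPKM was summed per gene identifier. GENCODE M21 gave 21921 protein-coding genes, of which 13609 had FPKM over 0.5 in 1 library or more, a filter that follows the study.

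Log2(FPKM + 1) of these was fitted with limma 3.58.1 in R 4.3.3 (lmFit, then eBayes with trend). Tests were two-sided, and p was adjusted by Benjamini-Hochberg across the 13609 genes. The test was checked on simulated data. Counting intervals are not given because the tables hold no counts, and 2 pups per genotype limit the precision. The 8 keratins and the gene lists were chosen with earlier results of these data known. All 8 are named, with the 2 keratins nearest to each by Euclidean distance of centered profiles. Of each list, up to 4 called genes of largest change and up to 2 uncalled genes of highest FPKM are named. *Krt79*, *Krt76*, *Upk1b*, *Slc17a7*, *Ddx3y*, the gene pair partners and the cell markers were picked with their values in view. The alternatives were a pseudocount of 0.1, FPKM above 1 in 2 or more libraries, no filter, all annotated genes, TPM, median scaling, quantile normalization, no trend, a replicate block, other thresholds and leaving out each pup.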

Additional observations from a re-analysis of the deposited data

How the results depend on the processing

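*Krt12* was called lower under all 13 alternatives to the fit (log2 fold change -4.62 to -2.57, highest limma adjusted p = 0.0434, without the filter), and *Krt23* under 12 of 13, all but no filter (-1.22, limma adjusted p = 0.0555), which left 1 member called lower. With median scaling or quantile normalization 1 member, *Krt7*, was called higher (0.55 and 0.56). Under the same scalings *Krt18* changed sign (0.00040 and 0.077), with adjusted p = 0.999 and 0.800 from limma. Whether same-numbered pups were paired is not given. Their deviations from the genotype means correlated at -0.077 over 13609 genes, which cannot show whether they shared a litter or batch. With the replicate block 1 member was called higher, *Krt13* (0.62, limma adjusted p = 0.0473), and *Krt4* was called lower (-0.96, limma adjusted p = 0.0424). Leaving out each pup in turn gave 0 to 1 members called higher and 2 to 3 called lower. It gave -1.83 to -0.083 for *Krt4*, 0.19 to 0.55 for *Krt7*, -0.96 to 0.0225 for *Krt8*, -3.05 to -2.57 for *Krt12*, 0.15 to 1.09 for *Krt13*, -0.30 to 0.077 for *Krt18*, -1.47 to 0.83 for *Krt19* and -1.36 to -1.08 for *Krt23*. Without knockout pup 1 the sign turned for *Krt8* (0.0225), *Krt18* (0.077) and *Krt19* (0.07), and without control pup 2 for *Krt19* (0.83). *Krt4* could not be tested with the filter of FPKM above 1 in at least 2 libraries. The log2 ratio of the summed FPKM of the 8 was -1.13, -0.91 with median scaling and -1.20 to -1.05 without each pup. Median scaling turned the genes called over all tested genes from 1223 higher and 3455 lower to 1894 and 1623, quantile normalization to 1683 and 1917. No filter left 475 and 927, and 7 called higher and 0 lower among mucosa genes. Over the alternatives that kept all pups, 7 to 14 mucosa genes and 1 to 12 linkers were called higher. So were 0 to 4 periderm regulators and 1 to 8 regulators of keratin genes. Called lower were 2 to 6 simple epithelium genes, 2 to 16 other keratins and 1 to 4 other filament genes. Under these alternatives 2.17% to 13.9% of all genes were called higher and 4.23% to 30.5% lower. Some listed genes passed the filter only through 1 genotype, so these counts are a description only. The median change of the other keratins was 0.09 under both scalings, against -0.11. The causes were not tested.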

Other observations

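Regulators listed as acting on simple or mucosal keratin genes included genes that rose and genes that fell. The list holds transcription factors and the splicing regulators *Esrp1* and *Esrp2*. *Esrp1* (-0.34, limma adjusted p = 0.0268) is among those called lower. Of 24, all tested, 8 were called higher, 6 lower and 10 not, with a median log2 fold change of 0.04. The share called lower, 25.0%, was near the 25.4% of all tested genes, and 33.3% were called higher beside 8.99%. Besides *Pitx1*, *Ehf* and *Elf3*, which rose, *Tfap2b*, an AP-2 factor, fell from 30.0 and 29.1 to 11.4 and 12.7 FPKM (log2 fold change -1.22, limma adjusted p = 0.000632). *Klf4*, a regulator of epidermal differentiation, at 358 and 311 against 394 and 333 FPKM, and the epithelial master regulator *Trp63*, at 88.9 and 99.9 against 85.7 and 92.7 FPKM, did not pass. With median scaling 8 were called higher and 2 lower.

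Intermediate filament genes outside the keratin family were in part too low to test. Of 15, 7 were tested, of which 1 was called higher, 4 lower and 2 not, beside 8.99% and 25.4% of all tested genes, with a median log2 fold change of -0.46. *Bfsp1*, which encodes the lens filament protein filensin, stood at 0.359 and 0.538 FPKM in the controls and at 4.54 and 3.58 FPKM in the knockouts (log2 fold change 1.80, limma adjusted p = 0.000885). The nuclear lamin genes *Lmnb1* and *Lmnb2* fell by 1.04 and 0.51 on the log2 scale, and vimentin, *Vim*, the filament of mesenchymal and other non-keratinocyte cells, fell by 0.77. *Synm* (-0.12) and *Nes* (-0.31) did not pass. With median scaling 1 was called higher and 2 lower.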
